A study of Mus musculus with 12 samples.

Results

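Cell cycle and DNA replication genes were followed in peritoneal macrophages of wild-type mice and of mice lacking Nfkbiz, the gene of the nuclear NF-κB regulator IκBζ. The set was a list of 40 genes by symbol, and each was taken from the brightest probe set that carries that 1 symbol alone. This gave values for 38 genes of the 19938 measured: 14 genes of the G1 phase, 13 of DNA replication and 11 of mitosis. Cdkn1a and Ccnb1 are not analysed here: the Cdkn1a probe set also carries another symbol, and no probe set was annotated with Ccnb1 in the table used. The membership rule used no measured value.

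The cells came from female mice, either C57Bl/6 (wild type) or Nfkbiz-/- (knockout), and were plated briefly before they were left untreated or given lipopolysaccharide (LPS) at 1 µg/ml for 4 h. LPS, a component of the outer membrane of Gram-negative bacteria, acts on macrophages through TLR4. The 4 groups held 3 arrays each, which are whole-transcript Affymetrix arrays read in 1 colour. The labels give no age and no detail of the knockout allele, and name no cell sort; the culture protocol names C57Bl/6 for all samples, while the knockout's strain entry reads Nfkbiz-/-. Nothing says whether replicates came from separate mice. The p-values measure the spread among these arrays alone, and that spread may be technical.

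A cell enters the cycle when D-type cyclins with CDK4 and CDK6, and then cyclin E with CDK2, phosphorylate the retinoblastoma protein and its relatives, which releases E2F transcription factors. E2F factors raise the genes that license replication origins (the MCM helicase, Cdc6, Cdt1) and that make deoxynucleotides, and a later wave of cyclin A, cyclin B, CDK1 and mitotic kinases drives division. Resident peritoneal macrophages are mostly out of cycle but can renew themselves in the cavity.

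All 7 macrophage markers, such as Adgre1 and Csf1r, lay above the background limit in every group, and so did 3 of 4 markers of large peritoneal macrophages. Markers of other cells were also seen: 4 of 5 B-cell markers lay above the limit, with summed intensity of 985 to 1594 in untreated and 754 to 984 in LPS-treated wild-type arrays and 759 to 1351 and 605 to 1037 in the knockout, and mast-cell markers summed to 841 to 2653 on untreated knockout arrays against 679 to 875 in wild type. Markers of large peritoneal macrophages did not move together: Timd4 read 313, 1646 and 407 untreated and 719, 2608 and 1156 with LPS in the knockout, highest in replicate 2, and 163 to 384 in wild type, while Gata6 fell with LPS in the knockout (log2 difference -0.74, limma adjusted p = 0.0226) and was not called in wild type (0.46, limma adjusted p = 0.175). Their part in any result below was not tested, and in bulk RNA fewer cells of a type cannot be told apart from less RNA per cell. Nfkbiz itself read 463, 431 and 406 untreated and 3371, 3786 and 3079.5 with LPS on wild-type arrays, and 267, 286 and 274 untreated and 1568, 1335 and 1634 with LPS on knockout arrays. It was lower in the knockout by log2 differences of -0.65 (limma adjusted p = 0.0401) and -1.17 (7.23e-05) but was not lost, and whether its probe set covers the deleted part is not stated. Arrays stood apart in the level of interferon-stimulated genes: LPS-treated wild-type replicate 3 was low (mean log2 of 9.46, against 11.37 and 12.30 for the others), and untreated knockout replicate 3 was high (10.42, against 8.68 and 8.44).

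An intensity was called near background when the group's mean log2 value lay under the 95th percentile of 1190 olfactory and vomeronasal receptor genes, which macrophages are not expected to transcribe. That limit was an intensity of 92.9 in untreated wild type, 102 with LPS, 92.2 in untreated knockout and 102 with LPS. Of the 11 mitosis genes 4 lay under it in all groups (Top2a, Ccna2, Birc5 and Bub1), as did 2 of the 13 replication genes (Cdc6 and Rrm2) and 0 of the 14 G1 genes. Cdkn2c and Plk1 lay under it in the LPS-treated groups of both genotypes only. Over all genes, 35% lay under the limit in every group, so a count of 6 among 38 members is not an excess of dim genes. Intensities depend on each probe set's own sequences, so levels are compared between groups and not between genes.

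**Figure D1:**
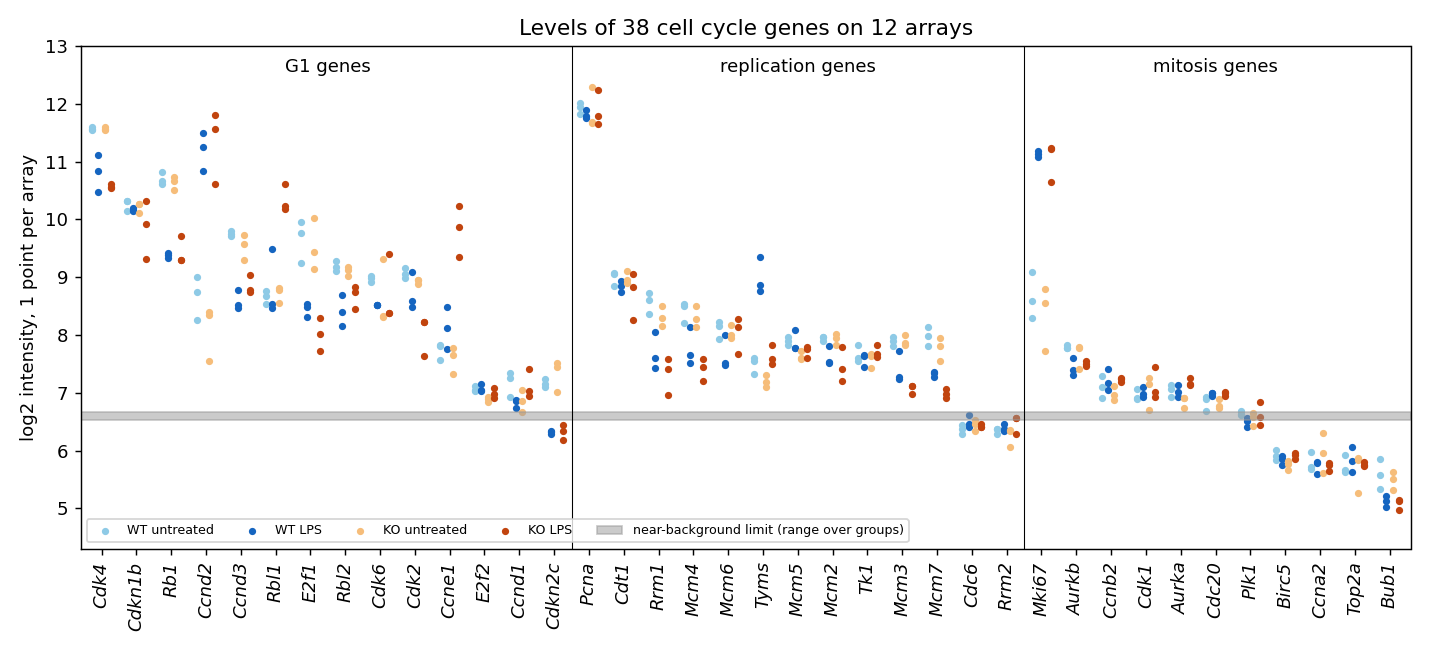
Log2 intensity (vertical axis) of the 38 measured genes on the 12 arrays, 1 point per array, coloured by group (blue shades wild type, WT; orange and red knockout, KO) and ordered by mean within G1, replication and mitosis genes. The grey band spans the near-background limits of the 4 groups; Cdc6, Rrm2, Birc5, Ccna2, Top2a and Bub1 lie below it in group mean, and Ccnd2 and Mki67 show LPS arrays well above untreated arrays.

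LPS changed 15 of the 38 genes in wild-type cells, 3 higher and 12 lower (limma, adjusted p under 0.05 over all 19938 genes). The members' share was 39.5%, where 28.1% of all genes were called, 9.53% higher and 18.5% lower. The rises were few and large (Ccnd2, Mki67 and Tyms, each over 2-fold), while the genes that fell included Rb1, E2f1, Ccnd3, Cdk4, 3 of the 6 MCM helicase genes and Rrm1. In the knockout 19 of 38 were called, 6 higher and 13 lower, a share of 50% that is close to the 45.7% of all genes called there (21.9% higher and 23.8% lower). The median log2 difference of the members was -0.13 in wild type and 0.00 in knockout, against 0.04 and 0.07 over all genes. These splits depend on scaling: with arrays centred at their 75th percentiles the median over all genes became 0.19 (wild type) and 0.28 (knockout). In wild-type cells 5 members were then called higher and 11 lower, beside 37.2% and 13.9% of all genes. In knockout cells 16 were higher and 10 lower, beside 55.3% and 16.9% of all genes. Single genes named below as called higher only with that centring stand beside these shares. No difference that was called before centring changed sign under that scaling. Differences near 0 without a call could change sign, such as Cdc6 in the knockout (-0.02 before and 0.20 after).

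**Figure D2:**
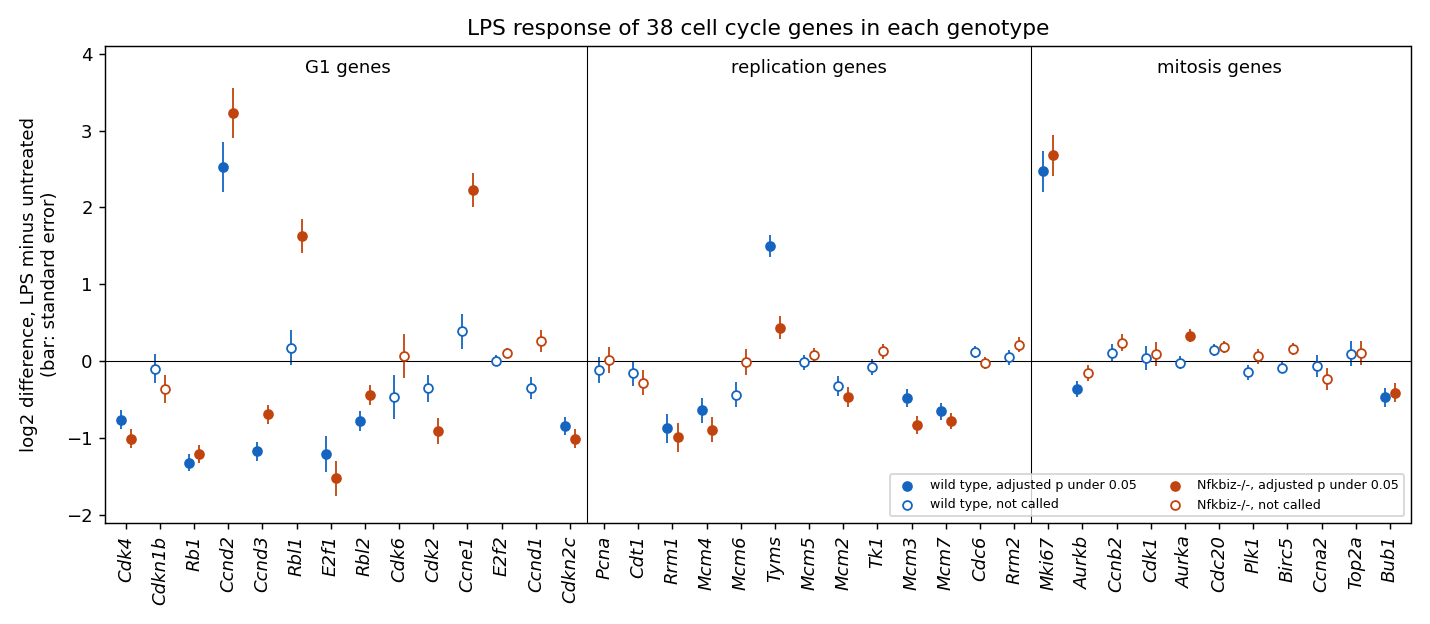
Log2 difference of LPS-treated minus untreated cells (vertical axis) for each gene in wild type (blue) and Nfkbiz-/- (red), with the standard error of the limma fit as bars; filled points passed an adjusted p under 0.05. Ccnd2 and Mki67 rose in both genotypes, Tyms rose by 1.50 in wild type and 0.44 in knockout, and Ccne1 and Rbl1 passed in the knockout.

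Among the G1 cyclins, the D-type genes moved in opposite directions. Ccnd2, the gene of cyclin D2, an activator of CDK4 and CDK6, read 511, 305 and 429.8 on untreated wild-type arrays and 1827, 2871 and 2448 with LPS (2.53 ± 0.32 SE on the log2 scale, limma adjusted p = 0.00012), a rise of 5.76-fold. In the knockout it read 339, 188 and 325 untreated and 3039, 1557 and 3562 with LPS (3.22 ± 0.32 SE on the log2 scale, limma adjusted p = 1.31e-05). Every LPS-treated array was above every untreated array, and knockout replicate 2 was the lowest of its group in both states. Ccnd3, the gene of cyclin D3, fell from 838, 860.3 and 895 to 367, 438 and 353 in wild type (-1.17 ± 0.12 SE on the log2 scale, limma adjusted p = 2.72e-05) and from 849.7, 632 and 763 to 426, 436 and 528 in the knockout (-0.69 ± 0.12 SE on the log2 scale, limma adjusted p = 0.000834). Again the treated and untreated arrays did not overlap in either genotype. Ccnd1, the third D-type cyclin gene, read 152, 121 and 162 untreated and 117, 115.5 and 107 with LPS in wild type, and 133, 102 and 117 untreated and 122, 130.4 and 169.8 with LPS in the knockout. It was not called in wild type (-0.35, limma adjusted p = 0.0957) or in knockout (0.26, limma adjusted p = 0.155), and its knockout groups overlapped. With only the wild-type groups in the fit it was lower (-0.35, adjusted p = 0.0497), as it was without wild-type untreated replicate 2 (-0.48), and centring on the 75th percentile called it higher in the knockout (0.47).

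Of the G1 kinases, Cdk4, the partner of the D-type cyclins, fell. It read 3007, 3007 and 3087 untreated and 1832, 1424 and 2209 with LPS in wild type (-0.76 ± 0.12 SE on the log2 scale, limma adjusted p = 0.000592), and 3109, 2999 and 3026 untreated and 1555, 1483 and 1502 with LPS in the knockout (-1.01 ± 0.12 SE on the log2 scale, limma adjusted p = 5.01e-05). The treated arrays lay below all untreated arrays, with wild-type LPS replicate 3 the highest of them. Cdk2, the partner of cyclin E and cyclin A, fell in the knockout from 493, 495 and 474 to 299, 199.8 and 298 (-0.90 ± 0.17 SE on the log2 scale, limma adjusted p = 0.00117). In wild type it read 575, 535 and 508 untreated and 386, 358 and 542 with LPS and was not called (-0.35, limma adjusted p = 0.15): replicate 3 overlapped the untreated arrays, and without that array Cdk2 was called lower (-0.54, adjusted p = 0.0232). Cdk6 was not called in wild type (-0.46, limma adjusted p = 0.266) or in knockout (0.07, limma adjusted p = 0.86). Its wild-type arrays did not overlap, at 484 to 522 untreated and 365 to 368 with LPS, and in a fit of the wild-type groups alone it was lower (adjusted p = 0.0011). The fit of all groups takes its spread also from the knockout, where replicate 2 read 638 untreated and 674 with LPS and the other 4 arrays 318 to 334.

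Of the inhibitors of these kinases, Cdkn2c, the gene of the CDK4 and CDK6 inhibitor p18, fell. It read 141, 151 and 137 untreated and 78.3, 80.8 and 80.3 with LPS in wild type (-0.84 ± 0.12 SE on the log2 scale, limma adjusted p = 0.000227), and 182, 175 and 129.8 untreated and 72.6, 80.6 and 87.4 with LPS in the knockout (-1.004 ± 0.12 SE on the log2 scale, limma adjusted p = 4.04e-05). All treated arrays were under all untreated arrays, with the treated means under the background limit. Cdkn1b, the gene of p27, was not called in wild type (-0.10, limma adjusted p = 0.738) or in knockout (-0.36, limma adjusted p = 0.13). It read 1281, 1275 and 1132 untreated and 1143, 1134 and 1167 with LPS in wild type, and 1231, 1102 and 1232 untreated and 1276, 639 and 970.0 with LPS in the knockout. Only knockout LPS replicate 2 stood clearly low: without knockout LPS replicate 1, which leaves it as 1 of 2 arrays, Cdkn1b was called lower with LPS (-0.59) and lower than in treated wild type (-0.54). Without an array left out, and the second Cdkn1b probe set was not called in these comparisons either.

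The retinoblastoma gene and its partner E2f1 fell in both genotypes. Rb1, which restrains E2F factors, read 1807, 1626 and 1560.5 untreated and 642, 672 and 684 with LPS in wild type (-1.32 ± 0.11 SE on the log2 scale, limma adjusted p = 6.68e-06), and 1449.7, 1709.6 and 1625 untreated and 629.6, 835 and 627 with LPS in the knockout (-1.20 ± 0.11 SE on the log2 scale, limma adjusted p = 8.05e-06). No treated array reached an untreated one. E2f1, an activator of S-phase genes, read 988, 867 and 604 untreated and 372, 357 and 318 with LPS in wild type (-1.21 ± 0.23 SE on the log2 scale, limma adjusted p = 0.00187), and 1039, 692 and 567 untreated and 313, 260.1 and 212 with LPS in the knockout (-1.52 ± 0.23 SE on the log2 scale, limma adjusted p = 0.000244). The untreated arrays spread widely but stayed above all treated arrays. Rbl2, the gene of the RB relative p130 that is typical of resting cells, fell from 618, 578 and 554 to 337, 283 and 413 in wild type (-0.78 ± 0.13 SE on the log2 scale, limma adjusted p = 0.000855) and from 558, 522 and 579 to 429.7, 452 and 351 in the knockout (-0.43 ± 0.13 SE on the log2 scale, limma adjusted p = 0.0186). The knockout call was lost without untreated replicate 3 (-0.40), without LPS replicate 3 (-0.32), after quantile normalization (-0.23) and after centring on the 75th percentile (-0.22). E2f2 was not called, at 0.01 in wild type and 0.11 in knockout, although centring on the 75th percentile called it higher in the knockout (0.32).

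**Figure D3:**
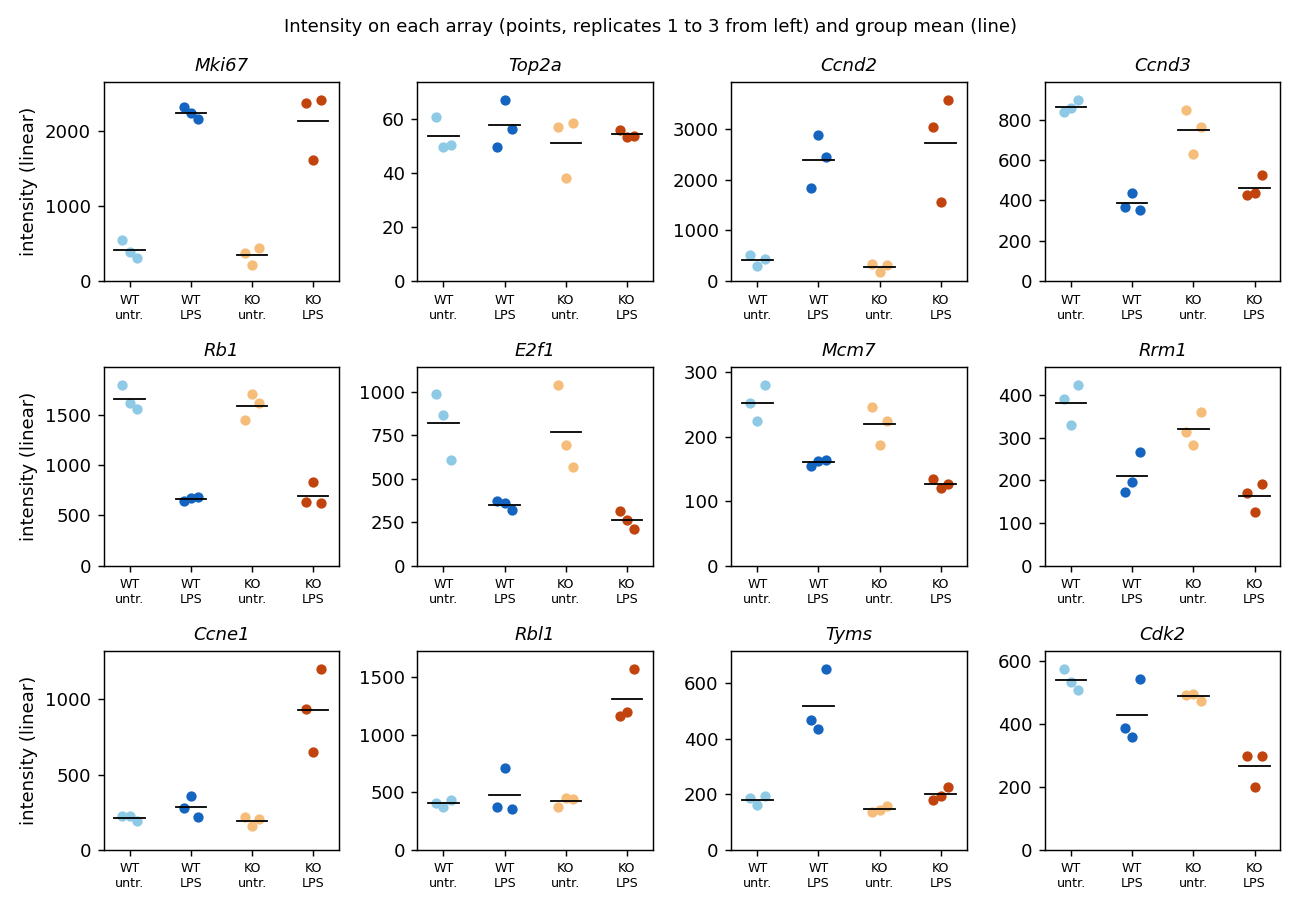
Linear intensity (vertical axes from 0) of 12 genes on each array, with replicates 1 to 3 from left to right in each group and a line at the group mean. Mki67 and Ccnd2 rise with LPS in both genotypes while Top2a stays between 38.4 and 67.0, and Ccne1 and Rbl1 are highest on the 3 LPS-treated knockout arrays.

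Of 13 replication genes, 4 were lower and 1 higher with LPS in wild type, and 5 lower and 1 higher in the knockout. Falls also outnumbered rises over all genes (18.5% against 9.53% in wild type, 23.8% against 21.9% in knockout). With arrays centred at their 75th percentiles the replication genes counted 4 lower and 2 higher in wild type, and 4 lower and 5 higher in the knockout. Over all genes that centring gave 13.9% lower and 37.2% higher in wild type, and 16.9% lower and 55.3% higher in the knockout. The MCM helicase genes were lower in 3 of 6 cases in wild type (Mcm3, Mcm4 and Mcm7), where 18.5% of all genes were called lower, and in 4 of 6 in knockout (these and Mcm2), where 23.8% were. After that centring 3 MCM genes were lower in each genotype, and in the knockout 1 was higher. Mcm7 read 252, 225 and 281 untreated and 154, 163 and 164 with LPS in wild type (-0.65 ± 0.11 SE on the log2 scale, limma adjusted p = 0.00073), and 245, 187 and 224 untreated and 135, 119.5 and 127 with LPS in the knockout (-0.78 ± 0.11 SE on the log2 scale, limma adjusted p = 0.000133). Treated and untreated arrays were apart in both genotypes. Mcm3 read 249.3, 239 and 225 untreated and 155, 151 and 211 with LPS in wild type (-0.48 ± 0.12 SE on the log2 scale, limma adjusted p = 0.00818), and 254, 232 and 228 untreated and 138, 126 and 138 with LPS in the knockout (-0.82 ± 0.12 SE on the log2 scale, limma adjusted p = 0.000147). Wild-type LPS replicate 3 lay closest to the untreated arrays. For Mcm4 the values were 369, 295 and 361 untreated and 202, 184 and 281 with LPS in wild type (-0.64 ± 0.16 SE on the log2 scale, limma adjusted p = 0.0116), and 311, 281 and 361 untreated and 193, 148 and 174 with LPS in the knockout (-0.89 ± 0.16 SE on the log2 scale, limma adjusted p = 0.000997). Without wild-type LPS replicate 2 the Mcm4 call in wild type was lost (-0.51, adjusted p = 0.0534). Mcm2 went from 257, 247 and 227 to 169.7, 147 and 220.3 in the knockout (-0.46 ± 0.13 SE on the log2 scale, limma adjusted p = 0.0144), with no overlap, and from 248.8, 237 and 251 to 183, 184 and 225 in wild type, where it was not called (-0.32, limma adjusted p = 0.0953). The knockout call of Mcm2 was lost without LPS replicate 2 (-0.33), after quantile normalization (-0.33) and after centring on the 75th percentile (-0.25). Mcm5 and Mcm6 were not called: Mcm5 differed by -0.01 in wild type and 0.08 in knockout, and Mcm6 by -0.43 and -0.01. In wild type Mcm2 was called lower without wild-type LPS replicate 3 (-0.42), knockout LPS replicate 2 (-0.32) or 3 (-0.32), and Mcm6 without wild-type LPS replicate 2 (-0.60) or knockout LPS replicate 2 (-0.43). Centring on the 75th percentile called Mcm5 higher in the knockout (0.29).

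The other licensing and fork genes were not called. Pcna, the gene of the sliding clamp of DNA polymerases, read 3930.2, 3622 and 4124 untreated and 3536, 3466 and 3793 with LPS in wild type (-0.11, limma adjusted p = 0.669, 95% confidence interval -0.49 to 0.26). In the knockout it read 3263, 5000.5 and 3278 untreated and 3225, 4819 and 3543 with LPS (0.01, limma adjusted p = 0.955), with replicate 2 the highest in both states. A second Pcna probe set was not called either. Cdt1, which loads the MCM helicase, read 462, 531 and 537 untreated and 427, 459 and 486 with LPS in wild type (-0.15, limma adjusted p = 0.519), and 496, 551 and 479.8 untreated and 305, 456 and 529 with LPS in the knockout (-0.28, limma adjusted p = 0.179). Its partner gene Cdc6 stayed near background, at 87, 82.6 and 78.4 untreated and 97.5, 85.1 and 87.5 with LPS in wild type and 92.4, 80.5 and 88.4 untreated and 84.6, 85 and 88.2 with LPS in the knockout. The groups of both genes overlapped in each genotype. Without knockout LPS replicate 3 Cdt1 was called lower there (-0.44), and Cdc6 was called higher after centring on the 75th percentile (0.28 in wild type, 0.20 in knockout).

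Genes of deoxynucleotide synthesis did not move together. Tyms, the gene of thymidylate synthase, which makes the thymidine nucleotide, rose from 187, 161 and 194 to 467, 436 and 651 in wild type (1.50 ± 0.14 SE on the log2 scale, limma adjusted p = 1.47e-05), a 2.83-fold change. In the knockout it went from 138, 145 and 158 to 179.9, 193 and 226 (0.44 ± 0.14 SE on the log2 scale, limma adjusted p = 0.0273), which was no longer called without knockout untreated replicate 1 (0.39), untreated replicate 2 (0.43) or LPS replicate 3 (0.35). The 3 treated wild-type arrays stood above all 9 others. Rrm1, the large subunit of ribonucleotide reductase, fell from 390.0, 331 and 424 to 172, 195 and 265 in wild type (-0.87 ± 0.18 SE on the log2 scale, limma adjusted p = 0.0038) and from 313, 284 and 361 to 170.1, 125 and 192 in the knockout (-0.99 ± 0.18 SE on the log2 scale, limma adjusted p = 0.00109). Treated arrays lay under untreated arrays in each genotype. Rrm2, the small subunit whose level usually follows S phase, stayed near background, at 82.6, 82.6 and 78 untreated and 82.9, 88.2 and 80.8 with LPS in wild type and 81.8, 66.6 and 81.3 untreated and 94.3, 78 and 94.1 with LPS in the knockout. Rrm2 was not called in wild type (0.05, limma adjusted p = 0.742) or in knockout (0.21, limma adjusted p = 0.0959). A limma fit that paired same-numbered arrays within each genotype called it higher in the knockout (0.21, adjusted p = 0.0337). So did centring on the 75th percentile (0.43) and the removal of knockout LPS replicate 2 (0.31). Tk1, the salvage enzyme thymidine kinase 1, was not called (-0.08 in wild type and 0.13 in knockout), but quantile normalization (0.27) and centring (0.34) called it higher in the knockout, and a second, dimmer Tk1 probe set was higher there (log2 difference 0.20, limma adjusted p = 0.0264).

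Among the 11 mitosis genes, Mki67 was the only one called with a change over 2-fold in either genotype. Mki67, whose protein Ki-67 coats mitotic chromosomes and is used as a marker of cycling cells, read 547, 383 and 314 on untreated and 2315, 2234 and 2152 on LPS-treated wild-type arrays (2.47 ± 0.27 SE on the log2 scale, limma adjusted p = 3.32e-05). In the knockout it read 374, 212 and 442 untreated and 2369, 1610.5 and 2405 with LPS (2.68 ± 0.27 SE on the log2 scale, limma adjusted p = 1.21e-05). These were rises of 5.54-fold and 6.39-fold, with no overlap of treated and untreated arrays. Top2a, the gene of the topoisomerase that separates replicated chromosomes, stayed near background at 60.9, 49.6 and 50.5 untreated and 49.7, 67 and 56.5 with LPS in wild type and 57.1, 38.4 and 58.7 untreated and 56.1, 53.3 and 53.8 with LPS in the knockout. Its difference was 0.10, limma adjusted p = 0.676 in wild type (95% confidence interval -0.25 to 0.45) and 0.11, limma adjusted p = 0.597 in knockout (-0.24 to 0.45). A second Top2a probe set was dimmer and not called in either genotype. Ccna2, the cyclin gene of S phase and mitotic entry, and Birc5, the gene of survivin, stayed near background as well, with log2 differences of -0.06 and -0.23 for Ccna2 and -0.08 and 0.16 for Birc5 (wild type, then knockout). The partners Ccnb2 and Cdk1, which form the mitosis-promoting kinase, differed by 0.11 and 0.05 in wild type and by 0.24 and 0.09 in knockout and were not called. Plk1, Cdc20, the activator of the anaphase-promoting complex, and those partners ranged from 85.4 to 175 over the 12 arrays. Without a call, these values do not show that a gene was unaltered. Centring on the 75th percentile called Cdc20 higher in wild type (0.30). It also called Cdc20 (0.40), Birc5 (0.37), Ccnb2 (0.46) and Plk1 (0.28) higher in the knockout. With that centring 54.5% of the mitosis genes were called higher in the knockout, beside 55.3% of all genes, whose median difference was 0.28. In wild type the shares were 18.2% and 37.2%, so these calls are not an excess. The limma fit that paired same-numbered arrays within each genotype called Ccnb2 higher in the knockout (0.24, adjusted p = 0.0363). In the knockout, Cdc20 was called higher without wild-type untreated replicate 2 (0.18) or knockout untreated replicate 2 (0.23), and Ccna2 lower without knockout untreated replicate 2 (-0.40).

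Small calls concerned 3 other mitotic kinase genes. Aurkb, the gene of the kinase of the chromosomal passenger complex, read 228, 219.8 and 218 untreated and 193, 158 and 167 with LPS in wild type (-0.36 ± 0.10 SE on the log2 scale, limma adjusted p = 0.0215), and 220.4, 170.2 and 219 untreated and 181, 176 and 187 with LPS in the knockout, where it was not called (-0.16, limma adjusted p = 0.235). That wild-type call was lost without untreated replicate 1 (-0.35), 2 (-0.37) or 3 (-0.38), without LPS replicate 2 (-0.30) or 3 (-0.34), after quantile normalization (-0.27) and after centring (-0.21). Without knockout untreated replicate 2 Aurkb was called lower in the knockout (-0.28). Aurka, the centrosomal relative of Aurkb, rose in the knockout from 120.0, 106 and 119.8 to 141, 141 and 154 (0.33 ± 0.09 SE on the log2 scale, limma adjusted p = 0.008). In wild type its arrays overlapped, at 141, 134 and 121 untreated and 140.0, 129.7 and 121 with LPS (-0.02, limma adjusted p = 0.899). Bub1, a spindle checkpoint kinase gene, was near background throughout, at 58.1, 40.6 and 47.6 untreated and 35, 32.7 and 37.2 with LPS in wild type (-0.47, limma adjusted p = 0.0146) and 40.1, 49.5 and 45.5 untreated and 34.9, 35.2 and 31.5 with LPS in the knockout (-0.41, limma adjusted p = 0.0194). Treated arrays were lower than untreated arrays, all within the range of the receptor genes. Its call was lost in wild type without untreated replicate 1 (-0.33) or LPS replicate 2 (-0.42), and in the knockout without untreated replicate 2 (-0.34) or 3 (-0.40), without LPS replicate 3 (-0.35) and after centring (-0.19).

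Promoters of the mitosis genes share letters that the choice of members did not use. Windows from 250 bases before to 50 after the start were found in RefSeq (GRCm38.p6) for 32 of the 38 genes and searched on both strands for CCAAT, for TTTGAA, known as the cell cycle homology region (CHR), and for the E2F-type letters TTTCCCGC, TTTGGCGC and TTTCGCGC. CCAAT and CHR letters occurred together in 7 of 9 mitosis genes (Mki67, Top2a, Aurka, Cdc20, Plk1, Ccnb2 and Cdk1), in 1 of 11 G1 genes and 1 of 12 replication genes, and in 8.97% of all genes with a window. E2F-type letters occurred in 6 of 12 replication genes, 3 of 11 G1 genes, 1 of 9 mitosis genes and 2.12% of all genes. Of the 7 genes with both CCAAT and CHR letters, Mki67 alone was called with LPS in wild type, and Mki67 and Aurka in knockout. Over all genes 28.1% were called in wild type and 45.7% in knockout, so these calls are not an excess. The 250 bases before the start of Mki67 (chr7:135716380-135716629, minus strand) and of Top2a (chr11:99024190-99024439, minus strand) are shown 5′ to 3′. The pair was chosen because both hold these letters, while Mki67 was called with LPS and Top2a was not. Top2a lay near background in all groups, so its values do not show that the responses differed. Capitals mark CCAAT and CHR letters on either strand.
Mki67: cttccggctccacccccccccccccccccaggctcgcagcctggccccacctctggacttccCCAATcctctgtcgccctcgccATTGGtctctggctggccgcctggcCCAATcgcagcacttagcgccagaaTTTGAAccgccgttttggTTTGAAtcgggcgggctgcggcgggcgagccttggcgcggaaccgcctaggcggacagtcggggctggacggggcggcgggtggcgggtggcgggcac
Top2a: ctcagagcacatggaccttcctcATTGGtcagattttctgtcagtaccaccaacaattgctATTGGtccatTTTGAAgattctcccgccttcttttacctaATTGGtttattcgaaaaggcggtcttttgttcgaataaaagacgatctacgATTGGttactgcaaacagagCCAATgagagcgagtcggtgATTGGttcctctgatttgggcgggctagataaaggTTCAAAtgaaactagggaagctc
The Mki67 stretch holds 5 such matches and the Top2a stretch 8. A match is a description of the letters and not of a bound site.

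Without LPS, no cell cycle gene was called between genotypes. Limma called 0 of 38 at the threshold and 0 under each alternative run, with 0.0752% of all genes called (0.0351% higher and 0.0401% lower). At an unadjusted p under 0.05 there were 4 of the 38, beside 1731 of all 19938 genes. Differences of knockout minus wild type ran from -0.57 for Ccnd2 (95% confidence interval -1.27 to 0.14, adjusted p = 0.669) to 0.17 for Cdkn2c. The 4 genes with an unadjusted p under 0.05 were E2f2 (-0.18), Mcm5 (-0.26), Aurka (-0.19) and Birc5 (-0.17). For Mki67 the interval ran from -0.88 to 0.28 and for Rb1 from -0.31 to 0.19, so a difference of 2-fold in Rb1 lies outside its interval. Ccne1 and Rbl1, which differed with LPS, stood at -0.14 (-0.63 to 0.35) and 0.06 (-0.43 to 0.55) without it.

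With LPS, 4 of 38 genes differed between genotypes, Ccne1 and Rbl1 higher and Tyms and Cdk2 lower in the knockout. The share of 10.5% is near the 8.14% of all genes called (3.28% higher and 4.87% lower), so the number says nothing particular about cell cycle genes. Ccne1, the gene of cyclin E1, which with CDK2 drives the step from G1 to S phase, read 278, 359 and 215 on LPS-treated wild-type arrays and 937, 649.9 and 1203 on knockout arrays (1.70 ± 0.22 SE on the log2 scale, limma adjusted p = 0.00123), a 3.24-fold difference. The untreated arrays of both genotypes lay between 160 and 226; wild-type LPS replicates 1 and 2 lay above them, and the treated knockout arrays lay above all others. LPS raised Ccne1 in the knockout (2.23 ± 0.22 SE on the log2 scale, limma adjusted p = 1.34e-05), and in wild type it was not called (0.39, limma adjusted p = 0.231), though a fit with array weights called it higher (0.41, adjusted p = 0.0216). That fit called 10113 of all genes in wild type, against 5594 in the reported fit. Rbl1, the gene of the RB relative p107, a repressor of E2F targets that is itself made as cells near S phase, read 370.5, 714 and 356 on treated wild-type arrays and 1165, 1196 and 1570.5 on treated knockout arrays (1.51 ± 0.22 SE on the log2 scale, limma adjusted p = 0.00225). Untreated arrays read 406, 371 and 432 (wild type) and 374, 449 and 438 (knockout). Wild-type LPS replicate 2 lay above the other wild-type arrays but below all treated knockout arrays, and LPS raised Rbl1 in the knockout (1.63 ± 0.22 SE on the log2 scale, limma adjusted p = 0.000125) without a call in wild type (0.18, limma adjusted p = 0.597).

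**Figure D4:**
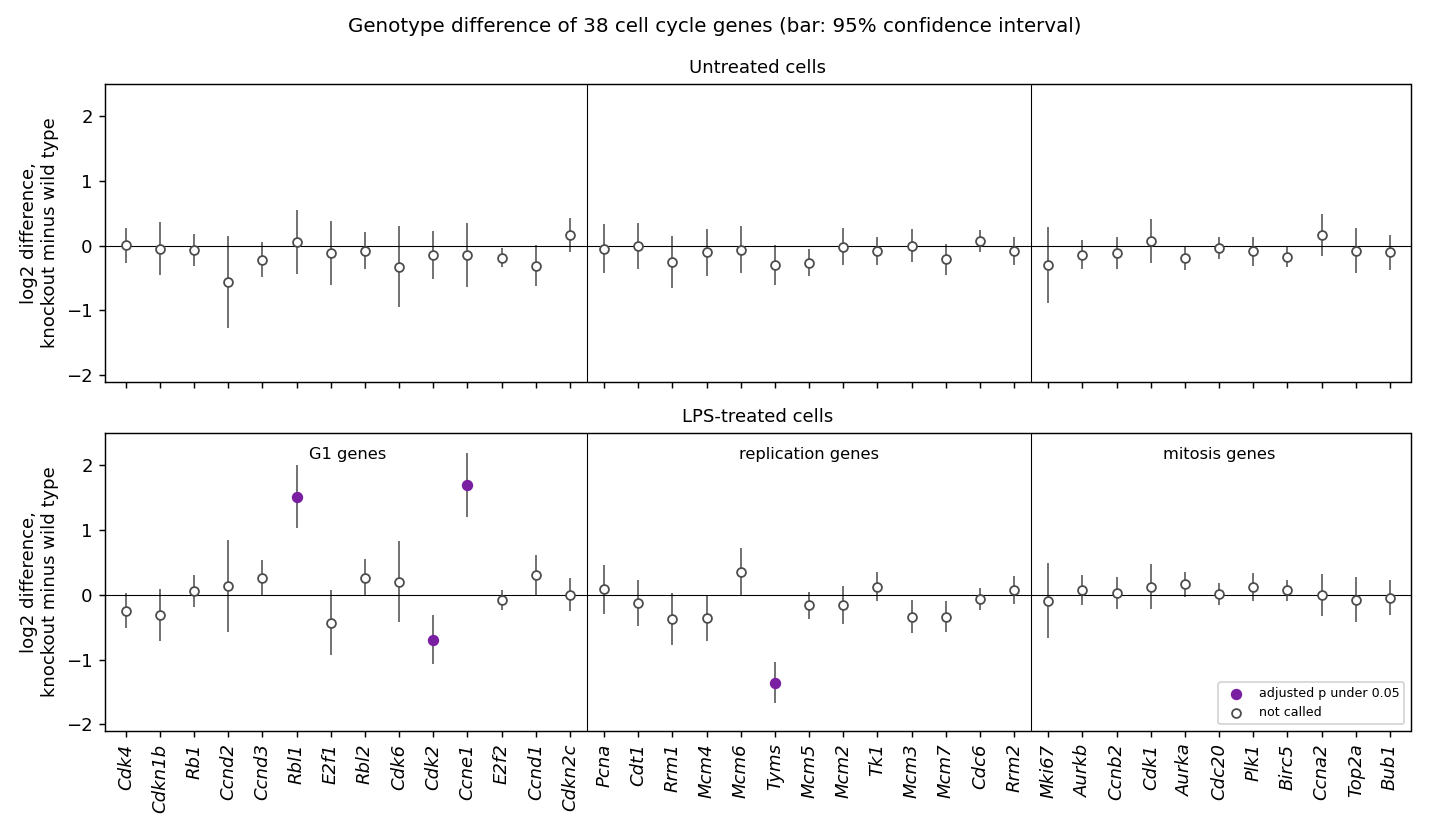
Log2 difference of knockout minus wild type (vertical axes) for the 38 genes in untreated (top) and LPS-treated cells (bottom), with the 95% confidence interval of the limma fit as bars. No untreated difference passed an adjusted p under 0.05; with LPS, Ccne1 and Rbl1 were higher and Tyms and Cdk2 lower in the knockout.

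Tyms read 467, 436 and 651 on treated wild-type arrays and 179.9, 193 and 226 on treated knockout arrays (-1.36 ± 0.14 SE on the log2 scale, limma adjusted p = 0.000304), with no overlap. Cdk2 read 386, 358 and 542 and 299, 199.8 and 298 (-0.69 ± 0.17 SE on the log2 scale, limma adjusted p = 0.0288), also without overlap. The Cdk2 call was lost without wild-type LPS replicate 1 (-0.76) or 3 (-0.51), without knockout LPS replicate 2 (-0.50), in a fit of the 2 LPS groups alone (-0.69, adjusted p = 0.147) and after removing the arrays with a deviating interferon-stimulated level (-0.51). The calls of Ccne1, Rbl1 and Tyms held in all 12 fits that left out 1 array, at differences of 1.49 to 1.93, 1.34 to 1.84 and -1.47 to -1.18. Mki67 (-0.09, limma adjusted p = 0.905, 95% confidence interval -0.67 to 0.49) and Ccnd2 (0.13, limma adjusted p = 0.885, -0.58 to 0.84) were not called between genotypes with LPS. The other 32 genes without a call ranged from -0.43 (E2f1) to 0.36 (Mcm6). Without wild-type LPS replicate 2, Cdk4 (-0.41) and Mcm3 (-0.43) were called lower in the treated knockout, as was Mcm7 without knockout untreated replicate 2 (-0.34), and array weights called Mcm6 higher (0.54). Array weights called 3296 of all genes in this comparison, and the fit without wild-type LPS replicate 2 called 2158, against 1623 in the reported fit.

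The response to LPS itself differed between genotypes for 2 of 38 genes, by the interaction term, where 0.747% of all genes were called (0.301% higher and 0.446% lower). Ccne1 responded more in the knockout (difference of responses 1.84, SE 0.32, limma adjusted p = 0.0269) and Tyms less (-1.06, SE 0.20, limma adjusted p = 0.0419). For Rbl1 the difference of 1.45 missed the threshold (SE 0.32, limma adjusted p = 0.0709), and it passed in the fit with a term for each genotype and replicate number (adjusted p = 0.047), with array weights (1.71, adjusted p = 0.00869) and without wild-type LPS replicate 2 (1.78, adjusted p = 0.00133). These settings called 296, 667 and 365 of all genes for this term, against 149 in the reported fit. Of 12 fits without 1 array each, 8 did not call Ccne1: without wild-type untreated replicate 1 (1.79), 2 (1.80) or 3 (1.92), wild-type LPS replicate 1 (1.84) or 3 (1.66), and knockout untreated replicate 1 (1.93), 2 (1.71) or 3 (1.88). Tyms was not called in 9: without wild-type untreated replicate 1 (-1.09), 2 (-0.98) or 3 (-1.12), wild-type LPS replicate 1 (-1.13), knockout untreated replicate 1 (-1.11), 2 (-1.07) or 3 (-1.01), and knockout LPS replicate 1 (-0.99) or 2 (-1.04). The sign of both differences held in every one of these fits, at 1.63 to 2.08 for Ccne1 and -1.18 to -0.89 for Tyms.

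Values of interferon-stimulated genes moved alongside Rbl1 and Ccne1 on some arrays. The mean log2 level of 13 such genes was 11.37, 12.30 and 9.46 in LPS-treated wild type and 12.42, 12.50 and 12.68 on the knockout arrays, and wild-type replicate 2, the highest of its group, was also the highest at Rbl1 and Ccne1. On untreated knockout replicate 3, where that mean was 10.42, Rbl1 read 438 and Ccne1 202, within the range of the other untreated arrays. Without wild-type LPS replicate 3 the difference between genotypes with LPS was 1.34 for Rbl1 and 1.51 for Ccne1, and after removing that array and untreated knockout replicate 3 it was 1.34, adjusted p = 0.0179 and 1.51, adjusted p = 0.0102. The part of the interferon-stimulated level in these results was not tested. In the RefSeq table the protein-coding neighbours of Rbl1 are Samhd1, which encodes a phosphohydrolase of deoxynucleotides, and Mroh8. Samhd1 read 2669.5, 5247 and 957 in LPS-treated wild type and 5582, 5622 and 6605 in knockout (log2 difference 1.32, SE 0.44, limma adjusted p = 0.0933).

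**Figure D5:**
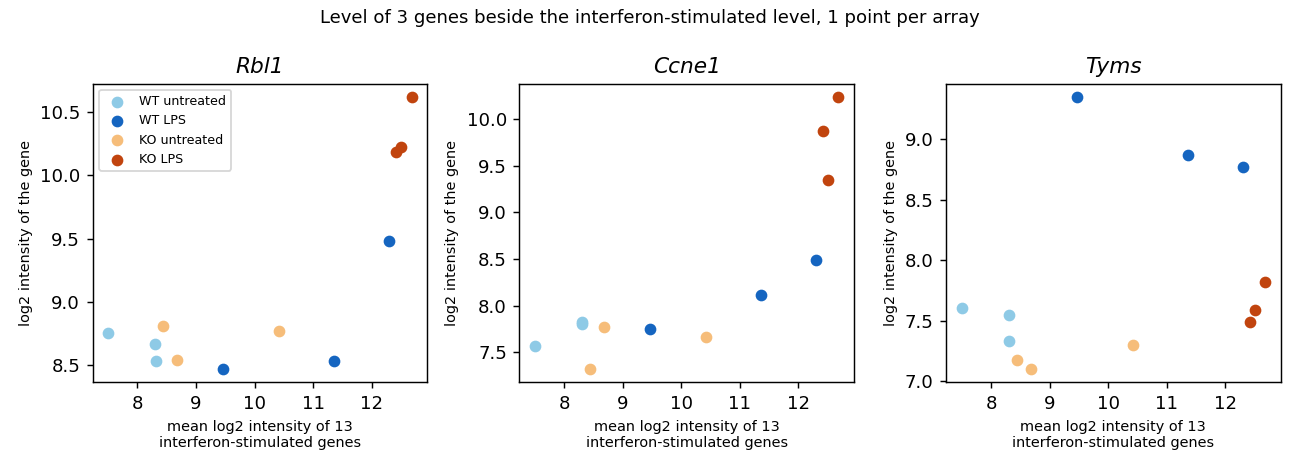
Log2 intensity of Rbl1, Ccne1 and Tyms (vertical axes) against the mean log2 intensity of 13 interferon-stimulated genes (horizontal axes), 1 point per array, coloured by group. Rbl1 and Ccne1 are highest on the 3 LPS-treated knockout arrays, whose interferon-stimulated level is 12.42 to 12.68, and Tyms is highest on the 3 LPS-treated wild-type arrays, whose level spans 9.46 to 12.30.

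The stretches before the starts of Rbl1 (chr2:157204535-157204784, minus strand) and Ccne1 (chr7:38107491-38107740, minus strand) are shown 5′ to 3′ for the pair of genes that stood higher in the treated knockout, with capitals for E2F-type, CCAAT or CHR letters.
Rbl1: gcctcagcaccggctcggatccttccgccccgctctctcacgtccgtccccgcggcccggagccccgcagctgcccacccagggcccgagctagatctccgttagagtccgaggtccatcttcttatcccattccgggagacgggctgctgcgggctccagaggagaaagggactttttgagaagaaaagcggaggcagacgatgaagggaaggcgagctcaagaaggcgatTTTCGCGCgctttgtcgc
Ccne1: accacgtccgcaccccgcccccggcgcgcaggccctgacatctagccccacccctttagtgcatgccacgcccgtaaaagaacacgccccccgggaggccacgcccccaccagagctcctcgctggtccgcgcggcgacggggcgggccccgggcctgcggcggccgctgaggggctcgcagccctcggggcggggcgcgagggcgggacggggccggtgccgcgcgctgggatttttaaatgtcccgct
Rbl1 holds 1 match, E2F-type letters close to the start, and Ccne1 holds 0 in this stretch. A search for letters of the interferon-stimulated response element was added after the values were seen and found them in 0 of the 32 members' windows and in 3.99% of all genes with a window. No match says only that these letters are not in this window.

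Other genes of the same pathways were counted from lists that are not part of the 40. Of 24 other G1 and restriction-point genes 3 rose and 4 fell with LPS in wild type, and 3 rose and 8 fell in the knockout. These shares of 29.2% and 45.8% are close to the 28.1% and 45.7% of all genes called. With arrays centred at their 75th percentiles 8 were higher and 3 lower in wild type, and 8 higher and 7 lower in the knockout. With LPS 3 were higher and 5 lower in the knockout than in wild type, a share of 33.3%. Over all genes 8.14% were called in that comparison, 3.28% higher and 4.87% lower. After quantile normalization 3 of the list were higher and 3 lower there (25%), beside 8.24% of all genes called. After centring 3 were higher and 2 lower (20.8%), beside 8.29%. E2f5, a repressive E2F that pairs with p107 and p130, read 232, 217 and 239 untreated and 496, 579 and 467 with LPS in wild type, and 200.3, 209 and 217 untreated and 192, 176 and 149 with LPS in the knockout. Its LPS response thus rose in wild type (1.16) and fell slightly in the knockout (-0.28, limma adjusted p = 0.0441), and the difference of responses was -1.44 (SE 0.15, limma adjusted p = 0.00139). Lin9, a subunit of the MuvB core that binds both p107 and p130 complexes and B-Myb, went from 77, 68.1 and 76.9 to 111, 132 and 113 in wild type and from 75.7, 71.5 and 74.9 to 301, 203 and 228 in the knockout. Untreated Lin9 lay under the background limit, and its response was greater in the knockout by 1.03 (SE 0.18, limma adjusted p = 0.0287). Ccng2, the gene of a cyclin of resting cells, rose by 1.20 in wild type and 1.61 in knockout, and Tfdp2, an E2F partner, was called lower in both, with LPS means of 74.4 and 69.1 that lie under the background limit.

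Of 43 other replication genes 1 rose and 13 fell in wild type, and 5 rose and 21 fell in the knockout, with median log2 differences of -0.21 and -0.28, against 0.04 and 0.07 over all genes. The lower calls were 30.2% and 48.8% of the list, beside 18.5% and 23.8% of all genes, and the higher calls 2.33% and 11.6%, beside 9.53% and 21.9%. With arrays centred at their 75th percentiles 4 (9.3%) were higher and 9 (20.9%) lower in wild type, beside 37.2% and 13.9% of all genes. In the knockout 11 (25.6%) were higher and 11 (25.6%) lower, beside 55.3% and 16.9% of all genes. Pole2, a subunit of DNA polymerase epsilon, was called lower in both genotypes, from a mean of 204 in untreated wild type and 215 in untreated knockout to LPS means of 81.0 and 60.1 under the background limit. Rpa1, which covers single-stranded DNA, fell (-0.79 and -1.20). With LPS 0 were higher and 4 lower in the knockout than in wild type, among them Gins4, a helicase partner (-0.73). That share of 9.3% is near the 8.14% of all genes called (3.28% higher and 4.87% lower). Of 41 other mitosis genes 19 were near background in every group; 2 rose and 6 fell in wild type, and 8 rose and 9 fell in the knockout. These shares of 19.5% and 41.5% are under the 28.1% and 45.7% of all genes called. With arrays centred at their 75th percentiles 11 (26.8%) were higher and 4 (9.76%) lower in wild type, beside 37.2% and 13.9% of all genes. In the knockout 22 (53.7%) were higher and 5 (12.2%) lower, beside 55.3% and 16.9% of all genes. These shares are under those of all genes in each case. Cks2, which binds cyclin-dependent kinases, rose in wild type (1.17) and was lower in the treated knockout (-1.26, limma adjusted p = 0.00989), while Kif11, a spindle motor gene near background (0.70), and Mad2l1, a checkpoint gene (0.82), were higher there. The difference of LPS responses of Cks2 was not called (-0.97, limma adjusted p = 0.25). Its treated knockout arrays read 621, 280 and 626, with replicate 2 the lowest. Cdc25b, a phosphatase that activates CDK1, fell in wild type (-1.03) and knockout (-1.48). Of 15 p53 target genes 5 rose and 6 fell in each genotype, a share of 73.3% beside 28.1% of all genes called in wild type and 45.7% in knockout, with Gadd45a (1.79 in wild type) and Plk2 (2.48) among the rises and Sesn1 (-2.56) and Trp53inp1 (-1.62) among the falls.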

How the data were processed

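Transcripts of peritoneal macrophages were measured on 12 one-colour arrays, 3 in each of 4 groups taken from the sample titles. The authors deposited 1 linear intensity per probe set and array. Affymetrix Expression Console 1.1 and RMA are named in the submitters' processing notes, without settings. The planned fit assumed log2 values, so these intensities were first converted to log2, with nothing added. Array medians lay between 110.4 and 118.7. The number of arrays limits the precision.

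Of 35556 probe sets 21789 carried 1 symbol in GEO's platform annotation, 1621 several and 12146 none; the probe set with the highest mean was kept for each of 19938 genes. Limma 3.58.1 in R 4.3.3 (lmFit and eBayes, two-sided, 4 group means, 8 residual degrees of freedom before moderation) gave 5 contrasts, with Benjamini-Hochberg adjustment over all genes and calls at an adjusted p under 0.05. The fit was tested on simulated data. RMA equalises arrays, so a change of most transcripts one way would not be seen.

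Members, gene lists and tests were chosen with earlier results of these data known. Every member may be named; values on every array are given for members called in any contrast and for the brightest and dimmest pair of each stage, and up to 4 called genes of each other list by size of difference, of which some are given. Cell type markers and interferon-stimulated genes serve as descriptions. Promoter sequences are from RefSeq, GRCm38.p6.

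Same-numbered arrays of untreated and LPS-treated knockout cells deviated together (correlations of 0.32, 0.57 and 0.46). Those of wild type did not in every pair (-0.07, 0.14 and 0.36). From the data alone, the numbers were taken to pair only the knockout arrays. The replicate block within genotype nevertheless paired arrays by number in both genotypes. Alternatives were other scalings, an offset, a filter on dim genes, other variance models, array weights, replicate blocks, all probe sets, fits of the groups compared, a stricter threshold and leaving out arrays.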

Additional observations from a re-analysis of the deposited data

Results flagged for a closer look

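The LPS response of Ccne1, the cyclin E1 gene, differed between genotypes by the interaction test. The difference of log2 responses, knockout minus wild type, was 1.84 (limma adjusted p = 0.0269), from responses of 0.39 in wild type and 2.23 in knockout.

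The response of Tyms, the thymidylate synthase gene, also differed by that test, with a difference of -1.06 (limma adjusted p = 0.0419) from responses of 1.50 in wild type and 0.44 in knockout. Both differences kept their sign without each array in turn, but the call was lost in 8 of these 12 fits for Ccne1 and in 9 for Tyms. Both calls were also lost after removing the arrays with a deviating interferon-stimulated level.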

How the results depend on the processing

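For the LPS responses of wild type (15 members called) and knockout (19), the genotype differences without LPS (0) and with LPS (4), every alternative run gave a count within 1.5 times of that reported; leaving out 1 array gave 13 to 17, 17 to 20, 0 to 0 and 3 to 6. The count for the difference of responses (2) was 0 at an adjusted p under 0.01, 1 with the replicate block, 4 with a replicate block within genotype (Cdk6 and Rbl1 joined Ccne1 and Tyms), 0 after removing the arrays with a deviating interferon-stimulated level (wild-type LPS replicate 3 and knockout untreated replicate 3), and 0 to 3 when 1 array was left out. The replicate block within genotype and the removal of those arrays were chosen after seeing the data. The replicate block also took the interaction of Ccne1 to an adjusted p = 0.0517, and beyond the calls named for Rrm2, Ccnb2, Ccne1, Cdk6 and Rbl1 the pairing changed no other call of a member. In wild type the block within genotype called Ccne1 higher (0.39, adjusted p = 0.0469) and Cdk6 lower (-0.46, adjusted p = 0.000986). That block also paired the wild-type arrays, which did not deviate together by number in every pair. Among the settings run, the call of Cdk6 for the difference of responses arose with that pairing alone. In wild type, Cdk6 was also called lower in the limma fit of the wild-type groups alone (adjusted p = 0.0011). Ccne1 was also called higher there with array weights (limma adjusted p = 0.0216). For the difference of responses, Rbl1 was also called with array weights (limma adjusted p = 0.00869) and without wild-type LPS replicate 2 (limma adjusted p = 0.00133). Of 42 differences of single genes, 998 alternative values were computed: 934 kept call and sign, 61 lost the call, 3 gained it and 0 changed sign. These differences were those called in the reported fit, with the uncalled differences of responses of Rbl1 and Cdk2 added. A gain could therefore arise only for Rbl1 and Cdk2. Other members without a call are not in these counts, and several gained a call or changed sign, as given above. Members near background in all groups numbered 6, against 4 with the 90th and 13 with the 99th percentile of the receptor genes. Among the stages, signal over background limits the mitosis genes most, since 4 of 11 gave no signal above it. That share is close to the 35% of all genes under the limit in every group (31.3% without the receptor genes). The number of these mitosis genes was 4 with the 90th and 9 with the 99th percentile.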

Other observations

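Replicate 2 of the knockout stood apart at several members in both states. At Cdk6 it read 638 untreated and 674 with LPS, where the other knockout arrays read 318 to 334. At Pcna it read 5000.5 and 4819, against 3225 to 3543. At Mki67 (212 and 1610.5) and Ccnd2 (188 and 1557) it was the lowest of its group in both states. Mast-cell markers also differed by number in both states, but there replicate 3 was the highest and replicate 2 the lowest. Their mean log2 levels were 7.87, 7.24 and 8.79 on untreated and 7.83, 6.74 and 8.59 on LPS-treated knockout arrays in replicates 1 to 3. Of the untreated knockout arrays, replicate 2 lay within the untreated wild-type range (6.98 to 7.30) and replicates 1 and 3 lay above it. These genes were chosen after their values were seen.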
